A study of Mus musculus with 8 samples.

Results

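The VEGF and angiopoietin axis was represented by 10 genes, chosen by name as members of the pathway, out of 26667 genes in the count table: the ligands Vegfa, Vegfb, Vegfc and Pgf, the receptors Flt1 (VEGFR1), Kdr (VEGFR2) and Flt4 (VEGFR3), the angiopoietins Angpt1 and Angpt2, and their receptor Tek (TIE2). All 10 passed the filter on low counts and were tested. RNA was sequenced from 8 mouse tumours of undifferentiated pleomorphic sarcoma, a soft tissue tumour that arises here in hind limb muscle. The 4 KP tumours (KP 5 to KP 8) carried Trp53 fl/fl, and the 4 KPH2 tumours (KPH2 1 to KPH2 4) shared the KP genotype and also carried Epas1 fl/fl, the floxed gene of HIF-2α. Both groups received an adenovirus expressing Cre into the limb muscle of mice at least 8 weeks old, of both sexes and a mixed 129 and C57BL/6 background, and tumours were taken 7 weeks later or at their maximal permitted size. Cre acts only in cells that the virus reaches, and uninfected host cells in a tumour keep Epas1; which cell types recombined was not measured here.

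VEGF ligands are secreted by tumour and stromal cells and bind receptor tyrosine kinases on endothelium: VEGF-A acts mainly through Kdr, Flt1 binds VEGF-A, VEGF-B and placental growth factor and can act as a decoy, and VEGF-C acts through Flt4, which marks lymphatic endothelium and sprouting tip cells. Angiopoietin 1, made by mural and mesenchymal cells, activates Tek and stabilises vessels, while angiopoietin 2, released by endothelium, can oppose it. HIF transcription factors are known inducers of several of these genes, Vegfa first among them, through hypoxia response elements with the core ACGTG or GCGTG.

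Libraries held 6463221 to 13155510 counts. The study's methods left out 1 knockout sample as a technical outlier without naming it. KPH2 1 is taken to be that sample, since the authors' values for 7 tumours leave it out. It is shown apart throughout, and fold changes compare KPH2 2 to 4 with KP 5 to 8 unless all 8 tumours are named. Levels are given as CPM, the count of a gene relative to the library size, which was scaled by the trimmed mean of M-values (TMM). Epas1, the targeted gene, stood at 59.6, 82.2, 85.5 and 85.1 CPM in KP 5 to 8, at 54.2, 37.8 and 42.4 CPM in KPH2 2 to 4 and at 32.0 CPM in KPH2 1. The groups did not overlap, with a log2 fold change of -0.81 ± 0.19 (SE; adjusted p = 0.0742, edgeR quasi-likelihood test with Benjamini-Hochberg adjustment), or -0.91 ± 0.19 with all 8 tumours (adjusted p = 0.117), and with an adjusted p of 0.0115 in DESeq2 over 7 tumours and of 0.0442 in edgeR without KP 5. With an endothelial score as covariate, the log2 fold change of Epas1 was -0.4 ± 0.22 (adjusted p = 0.472). With a muscle score it was -0.66 ± 0.38 (adjusted p = 0.842), both scores being described below. Counts cover the whole gene, also what lies outside the floxed part, so that the Epas1 level checks the labels only in part. In whole tumours, fewer cells of a type and less RNA per cell cannot be told apart. The methods describe biological replicates but the labels do not say which mouse each tumour came from, and p-values measure the spread between these tumours.

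None of the 10 genes passed an adjusted p of 0.05 in edgeR, where 1.96% of 14867 genes did. At an unadjusted p under 0.05 there were 3 of 10, namely Kdr, lower in KPH2, and Vegfc and Flt4, higher in KPH2, against 17.8% of all genes. In the same 3 genes the KP tumours and KPH2 2 to 4 did not overlap, against 16.8% of all genes. DESeq2 called 1 of 10, Kdr, against 7.2% of the genes it tested. With all 8 tumours, edgeR again called 0 of 10, against 0.00675% of genes, and DESeq2 called Kdr, against 4.06%. Kdr was then the only member whose groups did not overlap, against 8.15% of genes. The median log2 fold change over the 10 genes was 0.03, beside -0.02 over all genes tested.

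**Figure D1:**
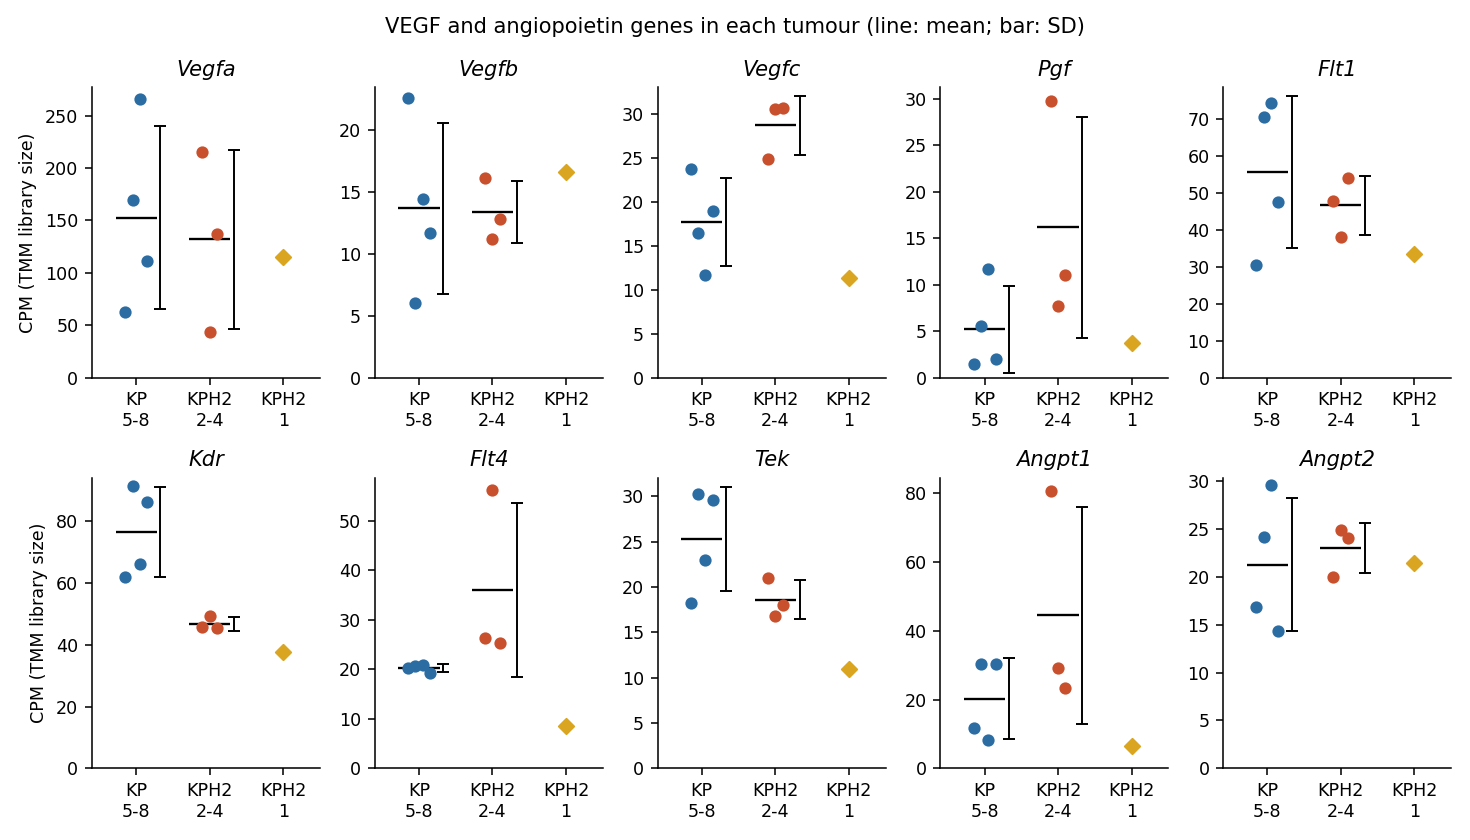
Level of each VEGF and angiopoietin gene in each tumour, in CPM on a linear axis from 0. Points are tumours (blue KP 5 to 8, red KPH2 2 to 4, yellow diamond KPH2 1), lines are group means and bars are SD (n = 4 and n = 3). Kdr in the 4 KP tumours lies between 62.0 and 91.4 CPM, above all KPH2 tumours. Flt4 in KPH2 2 to 4 lies above the narrow KP range, while KPH2 1 lies below it.

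The stretches before the transcription starts of Kdr, Vegfc and Flt1 are printed as examples, Kdr and Vegfc because their groups did not overlap in 7 tumours and Flt1 as the other VEGF-A receptor. Flt4, whose groups did not overlap either, is not printed because GENCODE starts the gene further upstream than RefSeq, so that the window before the RefSeq start lies in the first exon of GENCODE. Each is the 250 bases before a RefSeq start on mouse build GRCm38.p6, read 5′ to 3′ on the strand of the gene. Capitals mark ACGTG or GCGTG, or their reverse complements CACGT and CACGC, where present. The windows are Kdr at chr5:75978456-75978705 on the minus strand, Flt1 at chr5:147726012-147726261 on the minus strand and Vegfc at chr8:54077282-54077531 on the plus strand.
Kdr: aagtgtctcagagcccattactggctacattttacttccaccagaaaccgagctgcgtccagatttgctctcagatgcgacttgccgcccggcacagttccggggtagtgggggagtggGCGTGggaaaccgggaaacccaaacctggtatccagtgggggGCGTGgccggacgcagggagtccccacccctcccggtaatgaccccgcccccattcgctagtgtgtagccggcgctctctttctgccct
Flt1: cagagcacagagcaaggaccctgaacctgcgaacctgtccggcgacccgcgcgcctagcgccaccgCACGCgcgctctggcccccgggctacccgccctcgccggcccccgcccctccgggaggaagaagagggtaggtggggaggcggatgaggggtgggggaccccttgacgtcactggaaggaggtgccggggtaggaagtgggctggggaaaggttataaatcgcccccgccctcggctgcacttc
Vegfc: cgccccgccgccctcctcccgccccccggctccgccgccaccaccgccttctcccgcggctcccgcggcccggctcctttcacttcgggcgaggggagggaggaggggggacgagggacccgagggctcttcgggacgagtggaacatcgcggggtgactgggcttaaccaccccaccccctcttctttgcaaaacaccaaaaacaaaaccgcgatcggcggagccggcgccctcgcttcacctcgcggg
Kdr held GCGTG at 2 places and Flt1 at 1, while Vegfc held neither sequence. Of 32851 mouse promoter windows of this length, 38.6% held at least 1 of them on either strand. Among the 8 members with an entry in the promoter table, the Flt4 and Tek windows held neither, Vegfb held 2, the more upstream Vegfa window none, the other Vegfa window 2, the more upstream Pgf window 1 and the other Pgf window none. The Kdr and Flt1 windows lie inside the outermost bounds of these genes given below, since RefSeq also lists longer transcripts. So do both Pgf windows and the other Vegfa window, at chr17:46025164-46025413, and the Tek window does in part. The 2 matches of that Vegfa window thus lie within the gene. Whether this window acts as a promoter was not tested. A match is only a match of letters.

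Among the ligands, Vegfa (chr17:46016993-46032377, minus strand) spanned a wide range within both genotypes. It stood at 63.1, 169.6, 266 and 111 CPM in KP 5 to 8, at 215, 44.0 and 137 CPM in KPH2 2 to 4 and at 115 CPM in KPH2 1. The lowest and the highest KP tumour differed by 4.21 times, and the KPH2 tumours lay inside that range except for KPH2 3, which lay below it. The log2 fold change was -0.23 ± 0.59 (SE; adjusted p = 0.887), and an exact 2-sided permutation test, with 35 ways to split the 7 tumours, gave p = 0.66. The fold change turned positive, at 0.19, without KP 7 and likewise without KPH2 3, and at 1.18 and 1.47 in the fits with an endothelial and a muscle score.

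Vegfc (chr8:54077532-54186454, plus strand), the ligand of Flt4, was at 23.8, 16.5, 11.7 and 19.0 CPM in KP 5 to 8 and at 24.9, 30.6 and 30.7 CPM in KPH2 2 to 4. All 3 of these KPH2 tumours lay above the highest KP tumour, KPH2 2 by little, whereas KPH2 1, at 11.4 CPM, lay below the lowest. The log2 fold change was 0.68 ± 0.24 (adjusted p = 0.187), and 0.45 ± 0.33 with KPH2 1 included (adjusted p = 0.558). The exact 2-sided permutation test gave p = 0.057 over 7 tumours and p = 0.34 over 8, where the smallest possible value was 0.029 in both.

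Pgf (chr12:85166637-85177785, minus strand), placental growth factor, was the ligand with the lowest mean level per kb of exon in both groups and had the largest fitted fold change of the 10 genes. It stood at 1.49, 5.59, 11.7 and 1.99 CPM in KP 5 to 8, at 29.8, 7.73 and 11.1 CPM in KPH2 2 to 4 and at 3.76 CPM in KPH2 1. KP 7 lay above KPH2 3 and KPH2 4, so that the groups overlapped, and KPH2 2 stood far above the others. The log2 fold change of 1.66 ± 0.75 (adjusted p = 0.302) moved to 0.88 without KPH2 2 and to 2.46 without KP 7. It was 3.67 ± 1.04 (adjusted p = 0.181) with an endothelial score and 3.81 ± 1.72 (adjusted p = 0.735) with a muscle score as covariate, both scores being described below. The values rest on 20 to 326 counts: the 20 counts of KP 5 give 0.913 to 2.31 CPM and the 326 of KPH2 2 give 26.6 to 33.2 CPM as exact 95% binomial intervals, which cover counting error only.

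Vegfb (chr19:6982472-6987651, minus strand), a ligand of Flt1, was at 22.6, 6.01, 14.4 and 11.7 CPM in KP 5 to 8, at 16.1, 11.2 and 12.8 CPM in KPH2 2 to 4 and at 16.6 CPM in KPH2 1. All KPH2 values lay inside the KP range, and the fitted log2 change was -0.05 ± 0.39 (adjusted p = 0.965), with 0.31 without KP 5 and -0.72 ± 0.43 (adjusted p = 0.528) in the fit with the endothelial score.

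Among the receptors, Kdr (chr5:75932827-75979072, minus strand), the main signalling receptor of VEGF-A, separated the genotypes in every tumour. It stood at 62.0, 91.4, 66.3 and 86.2 CPM in KP 5 to 8, at 45.9, 49.5 and 45.3 CPM in KPH2 2 to 4 and at 37.6 CPM in KPH2 1. The highest KPH2 value, 49.5 CPM in KPH2 3 (exact 95% interval of counting 45.2 to 54.0), lay below the lowest KP value, 62.0 CPM in KP 5 (57.9 to 66.4). The mean was 76.5 ± 14.5 CPM in KP (SD, n = 4) and 46.9 ± 2.25 CPM in KPH2 2 to 4 (SD, n = 3). The log2 fold change was -0.72 ± 0.18 (unadjusted p = 0.00332; adjusted p = 0.0818) in edgeR and -0.78 ± 0.17 with all 8 tumours (adjusted p = 0.12). The adjusted p of DESeq2 was 0.0179 over 7 tumours and 0.00685 over 8, so that the call depended on the tool. The exact 2-sided permutation test gave p = 0.029 over 7 and over 8 tumours, the smallest these designs allow.

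Of 18 endothelial markers, 16 had a negative log2 fold change, with a median of -0.56. In 8 of the 18 the groups did not overlap, all lower in KPH2, against 7.83% of all genes. Clec14a, an endothelial surface lectin, was the only 1 called in edgeR, where 0.72% of all genes fell, with a log2 fold change of -1.38 ± 0.27 (adjusted p = 0.0457), and the call was lost in each of the 7 fits that left out a tumour (adjusted p 0.0515 to 0.143). Pecam1 (CD31) was at 77.9, 148, 117 and 111 CPM in KP 5 to 8, at 67.4, 60.4 and 72.9 CPM in KPH2 2 to 4 and at 56.3 CPM in KPH2 1 (log2 fold change -0.78 ± 0.22, adjusted p = 0.119, or 0.0437 without KP 5). Esam, an endothelial adhesion molecule, had a log2 fold change of -0.86 ± 0.24 (adjusted p = 0.118). DESeq2 called 5 of 18, all lower (Pecam1, Esam, Eng, Sox7 and Clec14a), against 7.2% of its genes. The summed level of the 18 markers was 423 to 723 CPM in KP, 404 to 418 CPM in KPH2 2 to 4 and 326 CPM in KPH2 1, and none of the markers was at 0 in any tumour. An endothelial score, the mean log2 CPM of the 18 markers, was taken from each tumour, and the log2 CPM of Kdr minus that score was 1.34 to 2.02 in KP and 1.56 to 1.75 in KPH2 2 to 4, so that the groups overlapped. Kdr had a log2 fold change of -0.43 ± 0.23 in a fit that held this score as a covariate (adjusted p = 0.468), and the part of the endothelial content in the Kdr result was not tested further. Macrophage markers had a negative fold change in 9 of 9, with a median of -0.57, 0 called by edgeR and summed levels of 2264 to 4192 CPM in KP, 1674 to 2491 CPM in KPH2 2 to 4 and 2136 CPM in KPH2 1, none being at 0 in any tumour. Their part in the Kdr result was not tested.

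Tek (chr4:94739086-94874976, plus strand), the angiopoietin receptor of blood vessels, stood at 18.2, 30.3, 23.0 and 29.6 CPM in KP 5 to 8, at 21.0, 16.8 and 18.0 CPM in KPH2 2 to 4 and at 10.9 CPM in KPH2 1. Only KP 5 lay within the range of KPH2 2 to 4. For Tek the log2 fold change was -0.46 ± 0.22 (adjusted p = 0.318), or -0.61 ± 0.24 with all 8 tumours (unadjusted p = 0.0318; adjusted p = 0.294). It was 0.01 ± 0.26 (adjusted p = 0.991) in the fit with the endothelial score.

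Flt1 (chr5:147561604-147726438, minus strand), whose soluble decoy and membrane forms are counted together, was at 30.5, 70.6, 74.4 and 47.5 CPM in KP 5 to 8, at 47.9, 38.1 and 54.0 CPM in KPH2 2 to 4 and at 33.6 CPM in KPH2 1. All KPH2 tumours lay inside the KP range, with a log2 fold change of -0.27 ± 0.31 (adjusted p = 0.708), which turned to 0.67 ± 0.27 (adjusted p = 0.322) in the fit with the endothelial score and to 0.61 ± 0.49 (adjusted p = 0.906) in that with the muscle score.

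Flt4 (chr11:49609679-49652739, plus strand), the receptor of VEGF-C, was the most even of the 10 genes in KP, at 20.3, 20.7, 20.9 and 19.2 CPM in KP 5 to 8. It stood at 26.4, 56.3 and 25.3 CPM in KPH2 2 to 4 and at 8.46 CPM in KPH2 1. The KP tumours thus lay within 1.09 times of each other, KPH2 2 to 4 lay above all of them with KPH2 3 far above, and KPH2 1 lay below all of them. Its log2 fold change was 0.82 ± 0.28 (adjusted p = 0.183), 0.34 without KPH2 3 and 0.52 ± 0.45 with KPH2 1 included (adjusted p = 0.644). The exact 2-sided permutation test gave p = 0.029 over the 7 tumours and p = 0.6 over all 8. Relative to the endothelial score, the log2 CPM of Flt4 was -0.36 to 0.41 in KP, 0.73 to 1.94 in KPH2 2 to 4 and -0.48 in KPH2 1.

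Genes of lymphatic endothelium, where Flt4 is a marker, divided into groups. Prox1, the transcription factor of lymphatic identity, stood at 0.448, 1.54, 0.437 and 0.306 CPM in KP 5 to 8, at 2.65, 11.4 and 2.59 CPM in KPH2 2 to 4 and at 0.313 CPM in KPH2 1. Mmrn1, a protein that lymphatic endothelium secretes, was at 6.64 to 31.2 CPM in KPH2 2 to 4, with KPH2 3 highest, 1.87 CPM or below in KP and 1.49 CPM in KPH2 1. The chemokine Ccl21a was at 7.86, 30.0 and 6.64 CPM in KPH2 2 to 4, 1.64 CPM or below in KP and 1.33 CPM in KPH2 1. In all 3 genes KPH2 2 to 4 lay above every KP tumour, as 9.01% of all genes did, KPH2 3 stood above the others, as for Flt4, and KPH2 1 lay within the KP range. Mmrn1 had no count in KP 7 and Ccl21a none in KP 8, which allow up to 0.437 and 0.229 CPM (3 counts each). The log2 fold changes were 3.08 ± 0.75 for Prox1 (adjusted p = 0.0794), 4.54 ± 0.91 for Mmrn1 (adjusted p = 0.0523) and 4.34 ± 0.99 for Ccl21a (adjusted p = 0.0708). Without KPH2 3 they were 1.99, 3.72 and 3.31, and without KP 5 Mmrn1 was called at 6.15 (adjusted p = 0.0296). Lyve1, the hyaluronan receptor that macrophages also carry, had a log2 fold change of -1.94 ± 0.72 (adjusted p = 0.213) and Pdpn, which fibroblasts also carry, one of -0.91 ± 0.34 (adjusted p = 0.208). None of the 5 lymphatic genes was thus called by edgeR, with 3 higher and 2 lower at an unadjusted p under 0.05 (8.5% and 9.26% of all genes), while DESeq2 called 4 of 5, Prox1, Mmrn1, Ccl21a and, lower, Lyve1, against 7.2% of its genes. With all 8 tumours DESeq2 called 2 of 5, against 4.06%.

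Skeletal muscle markers are given beside these values. All 29 tested had a positive fold change with a median of 2.23, KP and KPH2 2 to 4 did not overlap in 16 of 29, against 9.01% of all genes that were higher, and edgeR called 3 of 29, against 1.24% of all genes higher, whereas DESeq2 called 23 of 29, against 7.2% of its genes in either direction. With all 8 tumours edgeR called 0 of the 29 markers, against 0.00675% of genes, and DESeq2 called 7, against 4.06%. Their summed level was 1808 to 3381 CPM in KP, 4361 to 19797 CPM in KPH2 2 to 4 and 1490 CPM in KPH2 1. Eno3, muscle enolase, stood at 189.9, 197 and 108 CPM in KPH2 2 to 4 against 12.7 to 27.5 CPM in KP (log2 fold change 2.98 ± 0.31, adjusted p = 0.00922), and Neb, nebulin of the thin filament, and Myoz2, a Z-disc protein, were called with 2.23 ± 0.42 (adjusted p = 0.043) and 3.32 ± 0.63 (adjusted p = 0.0418), calls that held in only 1 of the 7 fits that left out a tumour, that without KPH2 4. In a fit that held a skeletal muscle score, the mean log2 CPM of the markers, the log2 fold change of Flt4 was 0.12 ± 0.48 (adjusted p = 0.978), that of Vegfc 0.42 ± 0.41 (adjusted p = 0.919; 0.23 ± 0.29 with the endothelial score, adjusted p = 0.799) and that of Kdr -0.81 ± 0.35 (adjusted p = 0.708). Computed with all 8 tumours, the muscle score was 2.97 to 4.37 in KP. It was 6.32, 6.99 and 4.7 in KPH2 2 to 4 and 2.94 in KPH2 1. KPH2 3 was highest in this score, as it was for Flt4, Prox1, Mmrn1 and Ccl21a. KP and KPH2 2 to 4 did not overlap in the score, so that this fit cannot tell genotype and muscle content apart. The part of muscle tissue in the Flt4 and Vegfc values was not tested.

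**Figure D2:**
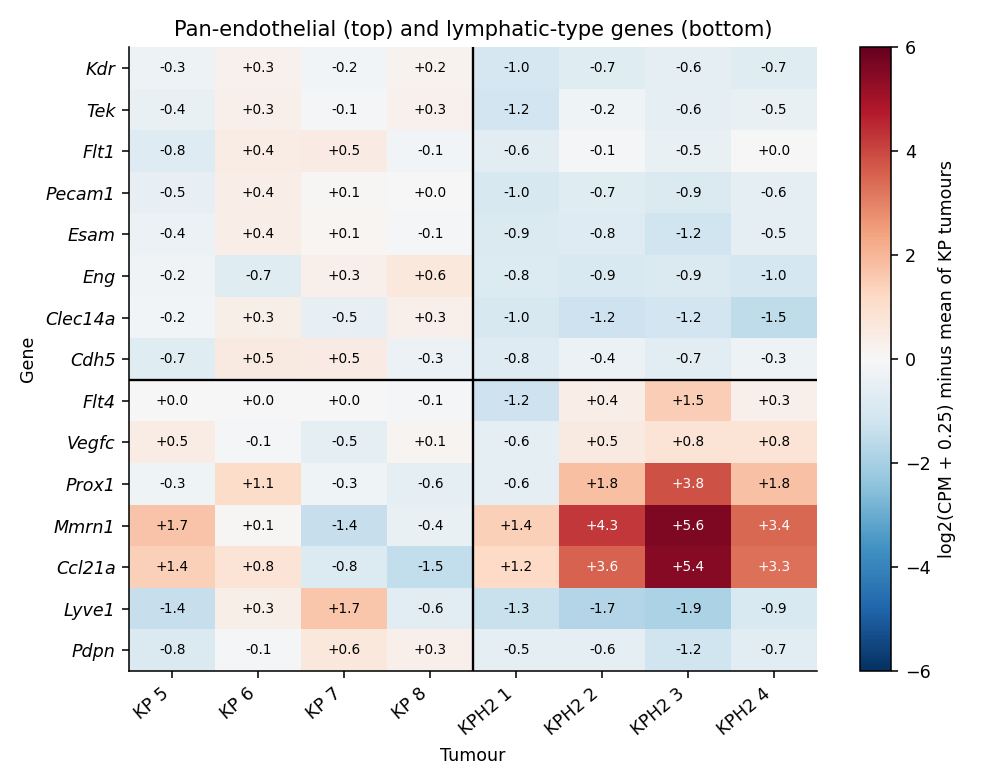
Endothelial genes (above the horizontal line) and genes of lymphatic type (below it) in each tumour, as log2(CPM + 0.25) minus the mean of the KP tumours, with the value in each cell. The genes shown were chosen after their values were seen. Kdr and Tek are below 0 in all 4 KPH2 tumours, and Flt4, Prox1, Mmrn1 and Ccl21a are above 0 in KPH2 2 to 4, most in KPH2 3.

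Among the angiopoietins, Angpt1 (chr15:42424667-42676977, minus strand) was at 11.8, 30.3, 8.31 and 30.3 CPM in KP 5 to 8, at 80.8, 29.3 and 23.4 CPM in KPH2 2 to 4 and at 6.42 CPM in KPH2 1. KPH2 2 stood far above the other tumours, KPH2 3 and 4 lay inside the KP range and KPH2 1 lay below it. For Angpt1 the log2 fold change was 1.12 ± 0.57 (adjusted p = 0.351), 0.78 ± 0.70 with all 8 tumours (adjusted p = 0.652) and 0.05 ± 1.09 (adjusted p = 0.994) in the fit with the muscle score. It was 1.88 ± 0.92 (adjusted p = 0.429) in that with the endothelial score and 0.38 without KPH2 2. An antisense gene, Gm17473, overlaps its exons, and whether counting used the strand is not given in the sources used here.

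Angpt2 (chr8:18690263-18741562, minus strand) was at 16.9, 24.2, 29.6 and 14.4 CPM in KP 5 to 8, at 20.0, 24.9 and 24.1 CPM in KPH2 2 to 4 and at 21.5 CPM in KPH2 1. All 4 KPH2 tumours lay inside the KP range. Angpt2 had a log2 fold change of 0.10 ± 0.27 (adjusted p = 0.887) and 0.09 ± 0.24 with all 8 tumours (adjusted p = 0.903), and 0.51 and 0.70 in the fits with the endothelial and muscle scores (adjusted p = 0.624 and 0.901).

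**Figure D3:**
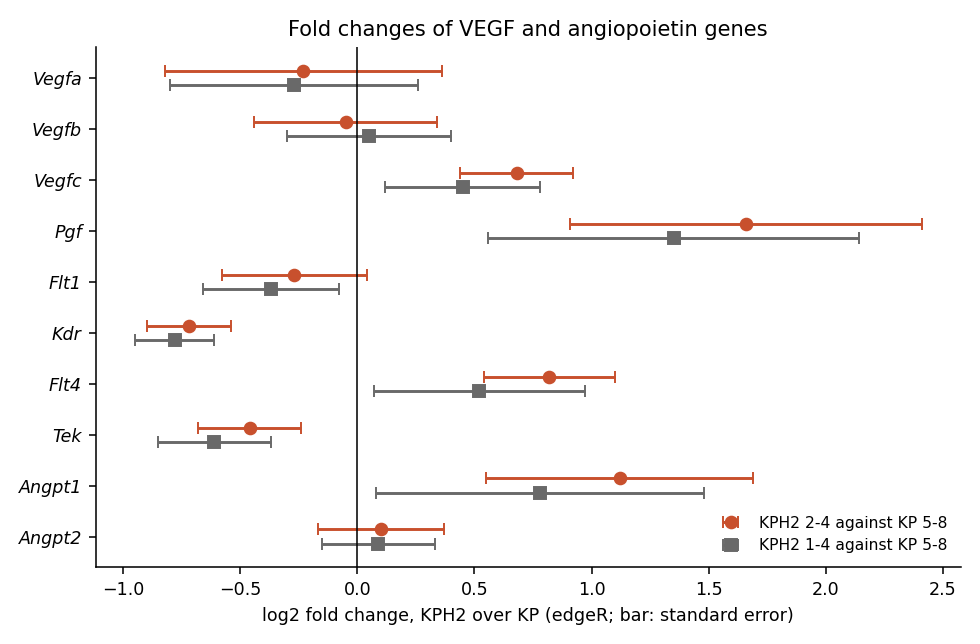
Log2 fold change of each gene, KPH2 over KP, from the edgeR fit to 7 tumours (red circles) and to all 8 (grey squares), with bars of 1 standard error. Kdr is at -0.72 and -0.78 in the fits, and Flt4 moves from 0.82 to 0.52 when KPH2 1 enters.

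Levels of different genes were compared as CPM per kb of the union of exons. In KP, Vegfa came first at 43.2 CPM per kb (SD 24.8, n = 4), followed by Kdr at 12.9 (SD 2.44), and these neighbours were the only ones in the order whose ranges over the KP tumours did not overlap. Vegfb followed at 10.7, Vegfc at 7.25, Angpt2 at 5.97, Tek at 5.38, Flt1 at 5.08, Angpt1 at 4.74, Flt4 at 3.24 and Pgf at 2.49 CPM per kb. In KPH2 2 to 4 the order was Vegfa at 37.5 (SD 24.3, n = 3), Vegfc at 11.7, Vegfb and Angpt1 at 10.4, Kdr at 7.92, Pgf at 7.8, Angpt2 at 6.46, Flt4 at 5.76, Flt1 at 4.26 and Tek at 3.95 CPM per kb, where all neighbours overlapped. Vegfa ranked first in 7 of 8 tumours, in KP 5 at 17.9 CPM per kb close to Vegfb at 17.6. In KPH2 3 Vegfc ranked first but was level with Vegfa, each at 12.5 CPM per kb.

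Ratios of 2 members within a tumour do not depend on library size. The 7 ratios computed were chosen after the values were seen and carry no test. KPH2 2 to 4 and KP did not overlap in 2 of the 7. Flt4 over Kdr, each in CPM per kb, was 0.309, 0.214, 0.298 and 0.211 in KP 5 to 8, 0.545, 1.08 and 0.529 in KPH2 2 to 4 and 0.213 in KPH2 1. Vegfa over Pgf was 24.9, 17.9, 13.4 and 33.0 in KP 5 to 8, 4.26, 3.36 and 7.26 in KPH2 2 to 4 and 18.1 in KPH2 1. In both ratios KPH2 2 to 4 stood apart from KP and KPH2 1 lay among the KP tumours. The other 5 overlapped (Flt1 over Kdr, Vegfa over Vegfc, Vegfa over Kdr, Kdr over Tek and Angpt2 over Angpt1), and Angpt2 over Angpt1 was at 0.568 to 4.26 in KP, 0.296 to 1.23 in KPH2 2 to 4 and 4.0 in KPH2 1.

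**Figure D4:**
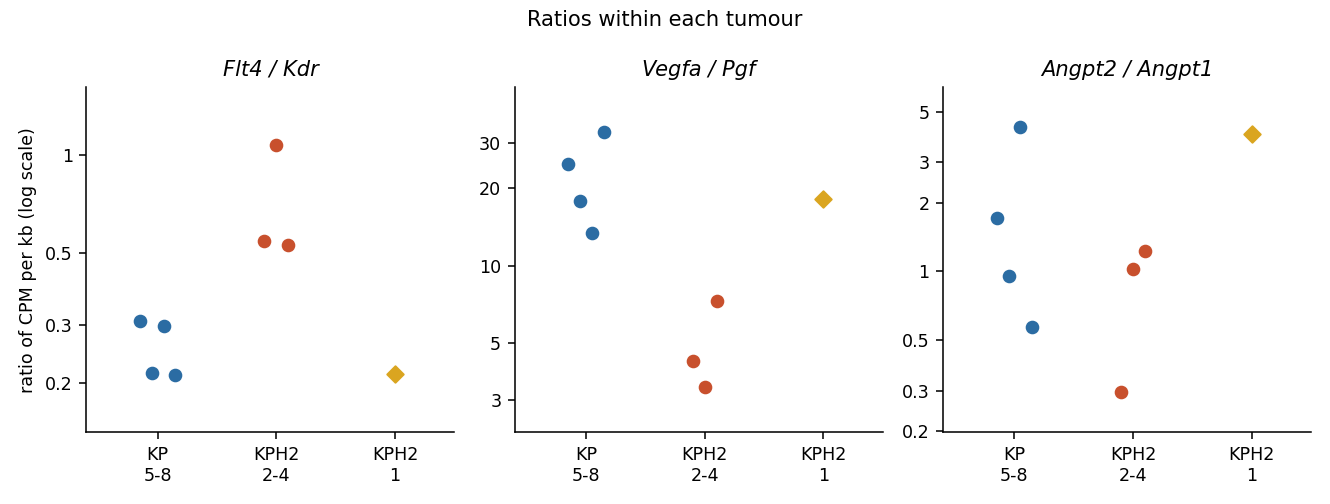
Ratios of CPM per kb within each tumour, on log axes (blue KP 5 to 8, red KPH2 2 to 4, yellow diamond KPH2 1). Flt4 over Kdr and Vegfa over Pgf separate KPH2 2 to 4 from the KP tumours, Angpt2 over Angpt1 does not, and KPH2 1 lies with the KP tumours in all 3 panels.

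Of 11 tested partners of the ligands and receptors, edgeR called 0 of 11, with 0 higher and 3 lower at an unadjusted p under 0.05, against 8.5% and 9.26% of all genes. Figf, which encodes VEGF-D, the other ligand of Flt4, was at 54.6, 9.36, 10.4 and 21.3 CPM in KP 5 to 8, at 5.3, 4.82 and 6.86 CPM in KPH2 2 to 4 and at 22.5 CPM in KPH2 1 (log2 fold change -2.09 ± 0.64, adjusted p = 0.141, and -1.28 without KP 5). In the edgeR fit with the endothelial score as covariate Figf was called (adjusted p = 0.0201). Ccbe1, needed to process VEGF-C, was at 207, 56.3, 284 and 88.2 CPM in KP 5 to 8, at 39.9, 45.4 and 39.9 CPM in KPH2 2 to 4 and at 238 CPM in KPH2 1 (log2 fold change -1.95 ± 0.54, adjusted p = 0.117). In both genes KPH2 2 to 4 lay below every KP tumour and KPH2 1 lay inside the KP range, the opposite direction to Vegfc and Flt4 in the same tumours. DESeq2 called both, 2 of 11 against 7.2% of its genes, and called 0 of 11 with all 8 tumours, against 4.06%. Tie1, the partner receptor of Tek, had a log2 fold change of -0.43 ± 0.17 (adjusted p = 0.245).

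Of 28 tested genes of signalling below the receptors, 3 rose and 0 fell in edgeR, where 1.24% of all genes rose, and with all 8 tumours none was called. Prkcb, protein kinase C beta, stood at 84.5 to 136 CPM in KP, at 451, 223 and 429.8 CPM in KPH2 2 to 4 and at 42.3 CPM in KPH2 1 (log2 fold change 1.78 ± 0.27, adjusted p = 0.0232). Shb, an adaptor that binds Kdr, was at 8.8 to 16.6 CPM in KP, 25.9 to 28.7 CPM in KPH2 2 to 4 and 7.6 CPM in KPH2 1 (1.09 ± 0.22, adjusted p = 0.0499), and Hspb1, a heat shock protein of actin remodelling that muscle also expresses, had a log2 fold change of 1.39 ± 0.26 (adjusted p = 0.041). All 3 had KPH2 1 below every KP tumour. The call was lost for Shb in each of the 7 fits that left out a tumour (adjusted p 0.0562 to 0.151), for Prkcb without KP 6, KP 8, KPH2 2 or KPH2 4 (highest 0.0833) and for Hspb1 in all but the fit without KPH2 4 (0.0458 to 0.138). DESeq2 called 5 of 28, against 7.2% of its genes: these 3 and, lower in KPH2, Prkca (log2 fold change in edgeR -0.91 ± 0.24, adjusted p in DESeq2 0.0143) and Cav1, caveolin 1 (-1.25 ± 0.41, 0.0295). With all 8 tumours DESeq2 called 1 of 28, against 4.06% of its genes. The median of the list was -0.01.

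Of 24 tested genes of endothelial growth and tip cells, edgeR called 0 of 24, with 2 higher and 4 lower at an unadjusted p under 0.05, against 8.5% and 9.26% of all genes, and a median of -0.27. DESeq2 called 2 of 24, Notch4 and Acvrl1, close to the 7.2% of all its genes. Acvrl1, the endothelial receptor ALK1, was at 25.0 to 26.7 CPM in KP, at 15.4 to 17.0 CPM in KPH2 2 to 4 and at 8.15 CPM in KPH2 1 (log2 fold change -0.68 ± 0.14, adjusted p = 0.0561). Notch4, a Notch receptor of endothelium, had a log2 fold change of -1.11 ± 0.31 (adjusted p = 0.111) and Jag1, a Notch ligand, one of 0.95 ± 0.31 (adjusted p = 0.157).

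Of 14 tested inhibitors of angiogenesis, 1 rose, against 1.24% of all genes, and 0 fell, against 0.72%. At an unadjusted p under 0.05 there were 1 higher and 5 lower, against 8.5% and 9.26% of all genes, and 11 of 14 had a negative fold change, with a median of -0.61. Col18a1, the collagen chain from which endostatin is cleaved, stood at 173, 256, 223 and 147 CPM in KP 5 to 8, at 2058, 1086 and 1271 CPM in KPH2 2 to 4 and at 121 CPM in KPH2 1. The KPH2 2 to 4 tumours were all far above KP while KPH2 1 lay below it, and the log2 fold change was 2.86 ± 0.29 (adjusted p = 0.00905), or 2.49 with all 8 tumours (adjusted p = 0.174). Thbs2, thrombospondin 2, had a log2 fold change of -1.18 ± 0.27 (adjusted p = 0.0646 in edgeR and 0.000976 in DESeq2) and Vash1, vasohibin, one of -0.77 ± 0.23 (adjusted p = 0.134). DESeq2 called 2 of 14, Col18a1 higher and Thbs2 lower, against 7.2% of its genes. In edgeR, Thbs2 was called without KP 6 (adjusted p = 0.044) and Vash1 without KP 5 (adjusted p = 0.0288).

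Of 22 tested genes of the hypoxia response, none was called by edgeR or DESeq2 and none had groups that did not overlap, against 16.8% of all genes. At an unadjusted p under 0.05 there were 3 higher and 0 lower, against 8.5% and 9.26% of all genes, and the median was 0.15. Ldha, lactate dehydrogenase, was at 370.3 to 528 CPM in KP, 489 to 839.8 CPM in KPH2 2 to 4 and 624 CPM in KPH2 1 (log2 fold change 0.54 ± 0.21, adjusted p = 0.229). Car9, carbonic anhydrase 9, had a log2 fold change of 1.17 ± 0.41 (adjusted p = 0.184) and Pdk1, a kinase that slows entry of pyruvate into mitochondria, one of 0.84 ± 0.30 (adjusted p = 0.202). Without KPH2 2 these were 0.34 for Ldha, 0.71 for Car9 and 0.48 for Pdk1.

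The genes most like 3 of the members were ranked by Pearson's r of log2 CPM over the 8 tumours among 14805 genes, as a description with no test, since all values share libraries. For Vegfa these were Atf3 (r = 0.97), Ero1l (0.964), Kcnq1 (0.957), Kcne3 (0.957) and 2810046L04Rik (0.951), with Spearman's rho of 0.905 to 0.976. Atf3 is a stress-induced transcription factor and Ero1l, an oxidase of the endoplasmic reticulum, is in the hypoxia list. For Kdr they were Arhgef6 (0.981), Gmfg (0.977), Fam105a (0.975), Gimap6 (0.974) and Fam65b (0.974), with rho of 0.952 to 1.0, and none of them is in the endothelial list. For Angpt2 they were Snx22 (0.978), Rad54l2 (0.972), Zfp263 (0.97), Usp3 (0.962) and Mex3a (0.954), with rho of 0.857 to 1.0. The genes most like Kdr had log2 fold changes of -0.54 to -0.90 and those most like Angpt2 of -0.00 to 0.17. These fold changes follow from the choice of genes by likeness over the same tumours and add no separate result.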

How the data were processed

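Tumour RNA from formalin-fixed, paraffin-embedded tissue was depleted of ribosomal RNA (Ribo-Zero Gold) and sequenced from TruSeq Stranded libraries. The authors aligned reads to GRCm38 with STAR 2.4, counted them over RefSeq transcripts with HTSeq 0.6.1 and deposited raw counts for 8 tumours. The authors also deposited regularised log2 values (rlog, DESeq2 1.6) for 8 and for 7 tumours, the second without KPH2 1. From the counts, genes were filtered (filterByExpr, minimum count 10, minimum total 15), scaled by TMM and tested with edgeR 4.0.16 (R 4.3.3; quasi-likelihood, robust; adjusted p threshold 0.05) over KP 5 to 8 and KPH2 2 to 4. DESeq2 1.42.0 was an alternative, as were all 8 tumours, RLE scaling, no filter, endothelial and muscle scores as covariates and leaving out each tumour. Single genes were also tested by exact permutation of mean log2 CPM (prior count 2). Exon lengths came from GENCODE M21 basic and promoters from a table of RefSeq starts, which had an entry for 8 of 10 members. Scripts were tested on simulated data. A further allele that both groups share is not reported here. Totals of 6463221 to 13155510 counts limit genes with few counts most, and intervals cover counting error only.

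The 10 genes and the lists were chosen with earlier results of these data known. Named from each list are the genes past the threshold, filled up to 3 by the smallest p, with Lyve1, Pdpn and genes called by DESeq2 alone (Prkca, Cav1, Eng and Sox7), chosen after their values were seen, all 10 members, Epas1, and the 5 genes most like Vegfa, Kdr and Angpt2.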

Additional observations from a re-analysis of the deposited data

Results flagged for a closer look

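Each of the 88 combinations of a named gene and a group of 4 tumours was checked for a tumour far from the other 3 by Dixon's test, which chance flags in about 1 in 20 groups. It flagged 6, none of them a VEGF or angiopoietin member. KP 5 stood below the other KP tumours for Epas1, at 5.9 against 6.36 to 6.42 log2 CPM, for Vash1, at 5.82 against 6.63 to 6.73, and for the myeloid integrin Itgam, at 6.45 against 7.42 to 7.61. KPH2 1 stood above the other KPH2 tumours for Ccbe1, at 7.9 against 5.32 to 5.51 log2 CPM, and below them for Shb, at 2.96 against 4.71 to 4.85, and for Acvrl1, at 3.06 against 3.96 to 4.1. No explanation of these values was tested.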

How the results depend on the processing

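The number of genes called, 292 over 7 tumours, was 1 with all 8 tumours, 1175 with DESeq2, 87 with the endothelial score and 3 with the muscle score as a covariate, 648 with DESeq2 on all 8 tumours, and 55 to 349 when a tumour was left out. The members called, 0 in edgeR, were 1 with DESeq2 over 7 and 1 over 8 tumours, in both Kdr, at log2 fold changes of -0.71 and -0.78. The other listed genes called, 9, became 0 with all 8 tumours, 46 with DESeq2, 3 with the endothelial and 0 with the muscle score, 26 with DESeq2 on all 8 tumours and 2 to 17 when a tumour was left out. Vegfa turned to 1.18 with the endothelial score, 1.47 with the muscle score and -0.76 to 0.19 when a tumour was left out. Vegfb turned to 0.05 with all 8 tumours in edgeR and 0.05 in DESeq2, and ranged from -0.29 to 0.31 when a tumour was left out. Flt1 turned to 0.67 and 0.61 with the endothelial and muscle scores, Tek to 0.01 with the endothelial score, and Angpt2 ranged from -0.06 to 0.31 when a tumour was left out. In the exact permutation test, Kdr on the authors' rlog values of 7 tumours differed by -0.44 (p = 0.057), and Flt4 by 0.23 (p = 0.6) with all 8 tumours and by 0.19 (p = 0.6) on rlog values of 8. The cause of these changes was not tested, except that fewer samples enter when a tumour is left out. The muscle score did not overlap between KP and KPH2 2 to 4, so that its fits cannot tell genotype and muscle content apart. The tests on rlog values and DESeq2 on all 8 tumours were chosen after seeing the data.

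No paired analysis was possible because KP and KPH2 tumours share no replicate number. With 3 and 4 tumours, wide spreads such as that of Vegfa leave changes of moderate size undetectable.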

Other observations

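Of 10 mural cell markers, 9 had a negative log2 fold change, none was called by edgeR and 1 higher and 1 lower had an unadjusted p under 0.05 (8.5% and 9.26% of all genes), with 1 DESeq2 call (7.2% of its genes) for Myh11, smooth muscle myosin (-1.27 ± 0.27, adjusted p in edgeR 0.0588). The pericyte gene Higd1b had -0.72 ± 0.33 (adjusted p = 0.309), while Notch3, a Notch receptor of mural cells, had 0.96 ± 0.37 (adjusted p = 0.227) and stood at 51.8, 153 and 65.4 CPM in KPH2 2 to 4, at 22.4 CPM in KPH2 1 and at 32.8 to 52.5 CPM in KP, with 0.34 without KPH2 3. All 9 macrophage markers had a negative fold change with a median of -0.57, none called by edgeR and 4 with an unadjusted p under 0.05 (9.26% of all genes were lower at that p). Mrc1, the mannose receptor, was at 393 to 1076 CPM in KP, at 199 to 399 CPM in KPH2 2 to 4 and at 326 CPM in KPH2 1 (-1.53 ± 0.39, adjusted p = 0.0951), and was the 1 of 9 that DESeq2 called, and edgeR called it without KP 5 (adjusted p = 0.032). Csf1r had -0.57 ± 0.23 (adjusted p = 0.237) and Itgam -0.85 ± 0.32 (adjusted p = 0.211).

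Of 8 mesenchymal genes 1 fell, against 0.72% of all genes. Pdgfra, a receptor of platelet-derived growth factor, was at 1503, 911, 709 and 859 CPM in KP 5 to 8, at 227, 274 and 238 CPM in KPH2 2 to 4 and at 627 CPM in KPH2 1, with a log2 fold change of -2.02 ± 0.27 (adjusted p = 0.0183). The call was lost without KPH2 2 (adjusted p = 0.0718) and with all 8 tumours (adjusted p = 0.16). Thy1 had -1.20 ± 0.47 (adjusted p = 0.228) and S100a4 0.76 ± 0.41 (adjusted p = 0.385), or 0.27 without KPH2 2.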
